A study of Mus musculus with 10 samples.

Results

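Ighv genes are the variable segments of the immunoglobulin heavy chain locus. During B cell development 1 of them is joined to a diversity (D) and a joining (J) segment, and the joined exon encodes most of the part of the heavy chain that contacts antigen. A mature B cell therefore transcribes its heavy chain mRNA from 1 chosen V segment, and in a sorted population the reads on each segment reflect both how many cells chose it and how much heavy chain mRNA those cells hold. Segments of similar sequence are grouped into VH families. In the mouse, the VH11 and VH12 families are known for antibodies of B-1 cells that bind phosphatidylcholine, and Ighv7-1 for the T15 antibodies against phosphorylcholine.

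The segments were chosen by name: every gene of the table whose GRCm38 symbol starts with Ighv. This gave 98 of 14450 genes. The annotation holds 185 such genes on the minus strand of chromosome 12 (GRCm38, chr12:113572927-116010093). The 98 were 94 of the 113 annotated as functional V genes and 4 of the 70 annotated as pseudogenes, namely Ighv1-2, Ighv1-38, Ighv3-2 and Ighv4-2. The other annotated segments were not analysed here. The number before the dash in a symbol is the VH family, and the 98 segments fell into 15 families.

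The libraries were bulk RNA-seq of sorted mature B cells taken from the bone marrow of Chat-GFP mice at steady state, with no treatment named. Chat is the gene of the acetylcholine-synthesising enzyme, and in the reporter strain GFP marks its expression. There were 5 Chat+ libraries and 5 Chat- libraries, all from the same reporter strain. Inbred background, age, sex and sort gates were not stated in the labels. Nor do the labels say that replicates were separate mice, and each p-value is thus set against the library-to-library spread alone, which may be technical.

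Values are given as CPM, in which the reads of each gene are scaled to a fixed library total, obtained by undoing the log2 of the table and removing its shared offset of 0.115 CPM. A share is a segment's or family's percentage of the summed Ighv CPM of the same library. Estimated depth was 24490000 to 29040000 reads in Chat+ and 21530000 to 30060000 reads in Chat- libraries, of which 13200 to 31800 reads per library fell on Ighv segments. Chat- replicate 4 stood apart: 1213 genes were at the lowest value in it, against 62 to 682 in the other libraries, and mitochondrial transcripts took 11.9% of its CPM, against 2.27% to 3.85%. Beside several results that moved with it, the value without it is also given. The 7 B cell markers summed to 9573 to 10121 CPM in Chat+ and 9955 to 10414 CPM in Chat- libraries.

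The sequences below are from segments named in the results. Each is from the GENCODE M21 transcripts on GRCm38, is given 5′ to 3′ on the coding (minus) strand, and is printed because the reads that separate close family members must cover the bases that differ. The first 6 are the last 150 bases up to and including the codon of the conserved cysteine near the 3′ end of the V exon, shown in pairs of the same family, with capitals at bases that differ within the pair.
Ighv10-1: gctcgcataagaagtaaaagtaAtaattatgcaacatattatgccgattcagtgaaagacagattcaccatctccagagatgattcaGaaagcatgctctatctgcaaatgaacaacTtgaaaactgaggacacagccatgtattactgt
Ighv10-3: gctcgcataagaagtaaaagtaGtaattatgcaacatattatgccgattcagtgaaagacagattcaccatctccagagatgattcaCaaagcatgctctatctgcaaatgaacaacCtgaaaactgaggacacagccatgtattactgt
Ighv6-3: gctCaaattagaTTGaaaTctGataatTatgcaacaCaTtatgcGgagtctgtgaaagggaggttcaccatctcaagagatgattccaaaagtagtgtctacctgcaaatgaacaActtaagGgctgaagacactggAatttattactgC
Ighv6-6: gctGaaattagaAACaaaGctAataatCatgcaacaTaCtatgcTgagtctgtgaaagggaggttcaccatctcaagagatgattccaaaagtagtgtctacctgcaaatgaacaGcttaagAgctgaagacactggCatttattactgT
Ighv8-12: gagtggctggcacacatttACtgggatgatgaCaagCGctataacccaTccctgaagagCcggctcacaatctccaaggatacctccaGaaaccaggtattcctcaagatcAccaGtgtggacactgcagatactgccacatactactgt
Ighv8-8: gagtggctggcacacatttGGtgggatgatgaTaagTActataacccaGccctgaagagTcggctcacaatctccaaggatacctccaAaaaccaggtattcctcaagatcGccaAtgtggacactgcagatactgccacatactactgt

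The windows are chr12:114479013-114479162 for Ighv10-1, chr12:114523449-114523598 for Ighv10-3, chr12:114391717-114391866 for Ighv6-3, chr12:114434794-114434943 for Ighv6-6, chr12:115647955-115648104 for Ighv8-12 and chr12:115294072-115294221 for Ighv8-8. Ighv10-1 and Ighv10-3 differed at 3 of 150 bases (98% identity), Ighv6-3 and Ighv6-6 at 14 bases (90.7%) and Ighv8-12 and Ighv8-8 at 10 bases (93.3%). The next 6 are 48 bases near the 3′ end of the segment, reaching just past the codon of the conserved cysteine. They are shown for VH15, VH12 and VH11, each with 1 listed segment, and for VH1 segments with a high share overall or in 1 library. VH13, also with 1 listed segment, is not shown. The cysteine codon is in capitals.
Ighv15-2: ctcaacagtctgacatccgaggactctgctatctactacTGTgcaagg
Ighv12-3: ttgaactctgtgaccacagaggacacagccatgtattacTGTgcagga
Ighv11-2: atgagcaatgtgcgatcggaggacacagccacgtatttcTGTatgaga
Ighv1-26: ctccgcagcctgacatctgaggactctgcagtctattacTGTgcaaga
Ighv1-53: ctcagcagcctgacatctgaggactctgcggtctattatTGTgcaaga
Ighv1-59: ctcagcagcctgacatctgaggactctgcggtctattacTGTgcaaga

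These stretches lie at chr12:114564578-114564625 (Ighv15-2), chr12:114366526-114366573 (Ighv12-3), chr12:114048243-114048290 (Ighv11-2), chr12:114788372-114788419 (Ighv1-26), chr12:115158403-115158450 (Ighv1-53) and chr12:115335082-115335129 (Ighv1-59). The 3 VH1 stretches are close to one another, and the share of a segment's 31-base words that also occur in another gene's transcripts was 74.8% for Ighv1-26, 72.9% for Ighv1-53 and 64.3% for Ighv1-59. Over the 98 segments this share had a median of 44.1%, and 38 segments were above 50%. Values of single segments are therefore uncertain where the counting could split reads between near copies. Family sums are less exposed: no word of the VH6, VH10, VH11 or VH15 segments occurred outside its own family, and the highest share was 0.610% for a VH8 segment, 2.17% for VH12 and 17.1% for a VH1 segment.

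The total of the 98 segments overlapped between the groups. The Ighv sum was 638, 754, 769, 642 and 1233 CPM in Chat+ replicates 1 to 5, against 520, 655, 611, 700 and 927 CPM in Chat- replicates 1 to 5. The means were 807 ± 246 CPM for Chat+ libraries and 683 ± 152 CPM for Chat- libraries (SD, n = 5 each). The highest library was Chat+ replicate 5, and the lowest was Chat- replicate 1. Relative to the constant region genes Ighm and Ighd, which are spliced to the V exon in naive B cells, the Ighv sum was 8.83 ± 1.57% among Chat+ libraries and 8.15 ± 1.62% among Chat- libraries (SD, n = 5 each). In bulk samples like these, fewer cells of a type and less RNA per cell cannot be told apart.

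No change of a single segment between Chat+ and Chat- cells was detected in a limma fit across all 14450 genes with Benjamini-Hochberg adjustment. At an adjusted p under 0.05, 0 of 98 segments passed, where 1 gene passed over the whole table (0.00692%). The lowest adjusted p of a segment was 0.829, for Ighv1-31. Before adjustment, 8 segments (8.16%) were higher in Chat+ with p under 0.05, against 3.49% of all genes, and 2 (2.04%) were lower, against 1.01% of all genes. The higher count depended on single libraries. It was 3 without Chat- replicate 1 and 4 without Chat+ replicate 5, against 3.4% of all genes each. Without Chat- replicate 5 it was 11, against 3.38% of all genes. In CPM, 0 of 98 segments had all Chat+ values above all Chat- values, against 1.12% of all genes, and 0 had all Chat+ values below, against 0.304%. The log2 fold change was above 0 for 54 segments (55.1%), against 57.0% of all genes, with a median of 0.09 for the segments and 0.04 for all genes. The segments were less precisely measured than the average gene, with a median standard error of 0.37 on the log2 scale, against 0.23 for all genes.

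Shares of the VH families were next compared with a two-sided exact permutation test over libraries, which with 5 against 5 cannot give a p below 0.0079. Of 15 families, 5 had an unadjusted p under 0.05 and 0 passed after adjustment over the 15 families. VH10 and VH6 had the larger share in Chat+ cells, and VH8, VH15 and VH12 the smaller. With 15 families, 1 family alone at the smallest possible p would have an adjusted p of 0.12. The differences below are thus values that did not pass correction.

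VH10 was the only family whose groups did not overlap. Its share was 4.10%, 3.87%, 5.36%, 4.07% and 5.03% in Chat+ replicates 1 to 5, against 3.56%, 3.32%, 3.47%, 2.97% and 3.58% in Chat- replicates 1 to 5. All 5 Chat+ libraries were above the highest Chat- library. The means were 4.49 ± 0.665% and 3.38 ± 0.252% (SD, n = 5 each), a difference of 1.11 ± 0.318 percentage points (SE; exact p = 0.0079, adjusted p = 0.079). Without Chat- replicate 4 the difference was 1.004 points (exact p = 0.016, the smallest that 5 against 4 libraries can give). In CPM of the family rather than share, VH10 averaged 36.9 ± 15.3 CPM over the Chat+ libraries and 23.1 ± 5.79 CPM over the Chat- libraries (SD, n = 5 each; exact p = 0.056).

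Both listed VH10 segments leaned the same way. Ighv10-1 had 15.02, 16.4, 21.1, 16.3 and 35.5 CPM in Chat+ replicates 1 to 5, against 9.57, 13.5, 13.5, 9.69 and 17.5 CPM in Chat-. Only Chat- replicate 5 reached into the Chat+ range. The log2 fold change was 0.67 ± 0.26 (SE; limma adjusted p = 0.999). Ighv10-3, its near copy shown above, was named after its values were seen. It had 11.2, 12.7, 20.2, 9.80 and 26.5 CPM in Chat+, against 8.92, 8.27, 7.75, 11.1 and 15.7 CPM in Chat-, with overlapping groups and a log2 fold change of 0.57 ± 0.30 (SE; limma adjusted p = 0.999).

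VH6 was similar in size. Its share was 3.60%, 3.42%, 2.95%, 4.03% and 4.05% in Chat+ replicates 1 to 5, against 3.07%, 2.67%, 2.53%, 1.51% and 2.85% in Chat-. Of the Chat+ libraries, 4 were above every Chat- library, and Chat+ replicate 3 lay within the Chat- range. The means were 3.61 ± 0.458% and 2.53 ± 0.604% (SD, n = 5 each), a difference of 1.08 ± 0.339 points (SE; exact p = 0.016, adjusted p = 0.079). Chat- replicate 4 was the lowest library, and without it the difference was 0.829 points (exact p = 0.032).

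Its 2 listed members again leaned together. Ighv6-3 had 15.5, 15.9, 14.6, 16.5 and 33.8 CPM in Chat+, against 11.2, 10.5, 9.15, 5.43 and 17.0 CPM in Chat-, a log2 fold change of 0.86 ± 0.31 (SE; limma adjusted p = 0.946). Only Chat- replicate 5 exceeded the lowest Chat+ library. Ighv6-6, named after its values were seen, averaged 10.2 ± 3.46 CPM over the Chat+ libraries and 6.51 ± 1.87 CPM over the Chat- libraries (SD, n = 5 each), a log2 fold change of 0.62 ± 0.27 (SE; limma adjusted p = 0.999).

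VH8 was the larger of the families with a smaller share in Chat+. Its share was 4.05%, 3.49%, 5.29%, 3.72% and 4.69% in Chat+ replicates 1 to 5, against 4.86%, 5.94%, 5.20%, 9.74% and 5.56% in Chat-. Of the Chat+ libraries, 4 were below every Chat- library. The means were 4.25 ± 0.735% and 6.26 ± 1.99% (SD, n = 5 each), a difference of -2.01 ± 0.947 points (SE; exact p = 0.024, adjusted p = 0.089). Chat- replicate 4 held the highest value, and without it the difference was -1.14 points (exact p = 0.048), a change in size of more than 1.5 times. In CPM of the family the values were 34.9 ± 14.4 for Chat+ and 43.2 ± 17.1 for Chat- (SD, n = 5 each; exact p = 0.44).

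Within VH8 the gap lay mainly with Ighv8-12. Its share was 1.29%, 1.56%, 1.72%, 0.955% and 1.22% in Chat+, against 2.30%, 2.15%, 2.02%, 4.16% and 2.05% in Chat-. It was the 1 segment of 98 (1.02%) whose shares did not overlap between the groups. For comparison, 1.12% of all genes had all Chat+ values above all Chat- values in CPM, and 0.304% had all below. This count alone thus does not set Ighv8-12 apart. Its CPM did overlap, at 6.13 to 15.01 in Chat+ and 11.9 to 29.1 in Chat-. The log2 fold change of the level was -0.65 ± 0.30 (SE; limma adjusted p = 0.999), and -0.44 without Chat- replicate 4 (limma adjusted p = 0.804). Ighv8-8, the most abundant VH8 segment, averaged a share of 2.59% in Chat+ and 3.18% in Chat-, with a log2 fold change of the level of -0.07 ± 0.34 (SE; limma adjusted p = 0.999).

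VH15 and VH12 are minor families, each with 1 listed segment. The VH15 share, all from Ighv15-2, was 0.205%, 0.183%, 0.279%, 0.146% and 0.135% in Chat+, against 0.485%, 0.285%, 0.352%, 0.299% and 0.219% in Chat-. Of the Chat+ libraries, 4 were below every Chat- library. The means were 0.190 ± 0.0573% and 0.328 ± 0.0999% (SD, n = 5 each), a difference of -0.138 ± 0.0515 points (SE; exact p = 0.016, adjusted p = 0.079), and -0.146 points without Chat- replicate 4 (exact p = 0.032). These shares stand for 0.938 to 2.15 CPM of Ighv15-2 in Chat+ and 1.87 to 2.52 CPM in Chat-. The VH12 share was 0.158 ± 0.0441% among Chat+ libraries and 0.226 ± 0.0444% among Chat- libraries (SD, n = 5 each; exact p = 0.048, adjusted p = 0.14), and without Chat- replicate 4 the exact p was 0.095.

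**Figure D1:**
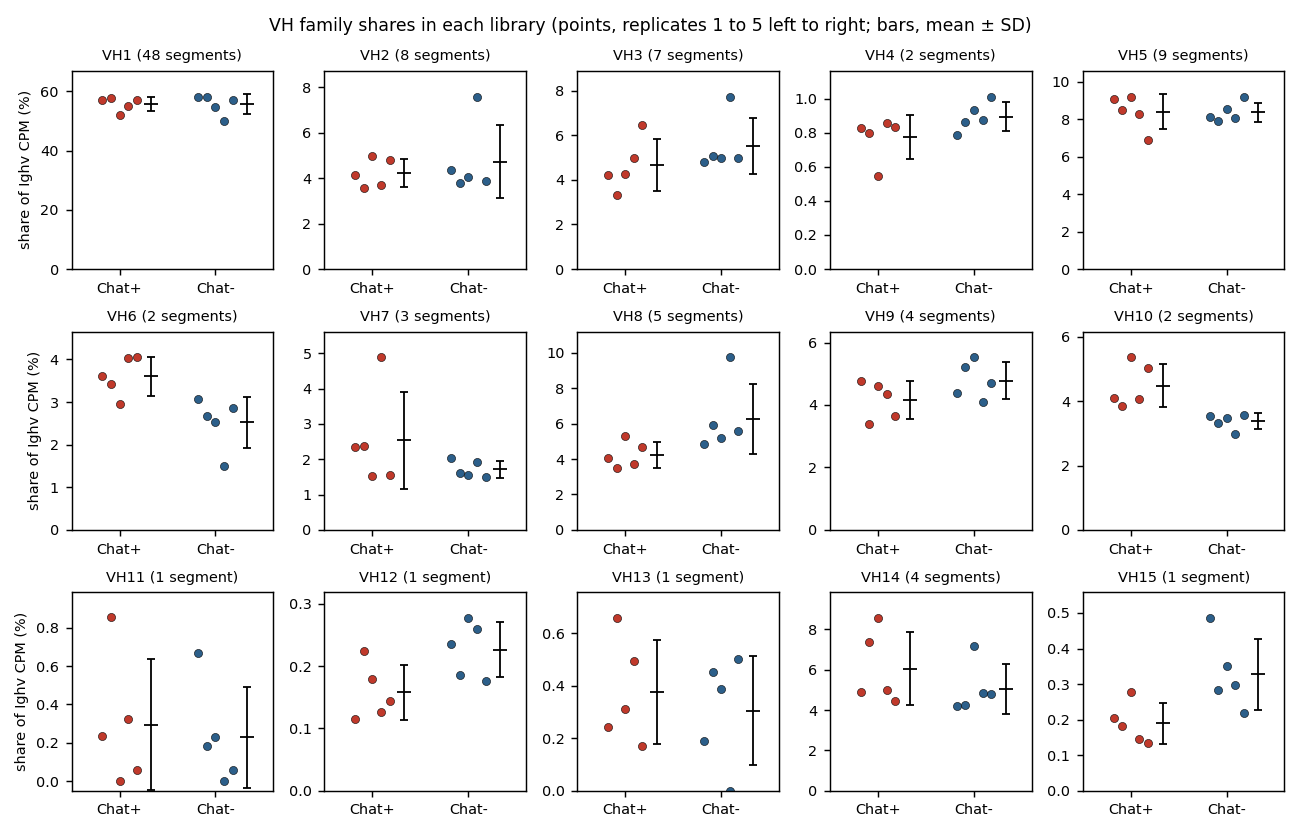
Share of the summed Ighv CPM (%, y axis) of each of the 15 VH families in the 5 Chat+ and 5 Chat- libraries, with 1 point per library and bars for the mean ± SD. VH10 is the only family in which every Chat+ point lies above every Chat- point, and the high Chat- point in VH2, VH3 and VH8 is replicate 4.

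VH1, the largest family with 48 listed segments, differed between the groups by less than the spread of the libraries. Its share was 55.8 ± 2.43% among Chat+ libraries and 55.7 ± 3.43% among Chat- libraries (SD, n = 5 each), a difference of 0.15 ± 1.88 points (SE; exact p = 0.93). Without Chat- replicate 4 the VH1 difference was -1.25 points (exact p = 0.43). VH5 was next, at 8.40 ± 0.929% in Chat+ and 8.37 ± 0.518% in Chat- (exact p = 0.92). VH14 averaged 6.05 ± 1.81% and 5.06 ± 1.23% (exact p = 0.24), and VH7 2.54 ± 1.37% and 1.72 ± 0.240% (exact p = 0.20). For VH7 the spread in Chat+ came largely from 4.88% in replicate 4, where Ighv7-3 was high. Without that library the difference was 0.236 points in place of 0.822. In CPM of the family, VH7 averaged 19.0 ± 7.45 in Chat+ and 11.5 ± 1.91 in Chat- (SD, n = 5 each). The exact p for CPM was 0.032 for VH7, 0.040 for VH6 and 0.032 for VH15 (adjusted p = 0.20 each). The VH14 difference of 0.990 points was 0.363 without Chat+ replicate 3 and 1.53 without Chat- replicate 3. The VH2, VH3, VH4 and VH9 shares averaged 4.23%, 4.65%, 0.773% and 4.16% in Chat+, against 4.73%, 5.51%, 0.894% and 4.78% in Chat-, with exact p from 0.087 to 0.74. Without Chat- replicate 4 the differences were 0.210 points for VH2 and -0.301 points for VH3. VH13 averaged 0.376% in Chat+ and 0.306% in Chat- (exact p = 0.60), and without Chat- replicate 4 the difference was -0.00675 points.

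Segments linked to B-1 antibodies were near the low end of the range and did not separate the groups. Ighv11-2 had 1.51, 6.45, 0, 2.08 and 0.698 CPM in Chat+, against 3.47, 1.21, 1.41, 0 and 0.556 CPM in Chat-. It was highest in Chat+ replicate 2 and at 0 in 1 library of each group. Its log2 fold change was 0.39, with a 95% interval of -1.996 to 2.78 (limma adjusted p = 0.999), and -0.345 without Chat- replicate 4. Ighv12-3 had 0.735, 1.69, 1.38, 0.816 and 1.78 CPM in Chat+, against 1.22, 1.22, 1.69, 1.81 and 1.63 CPM in Chat-, with an interval of -1.17 to 0.60. Ighv7-1, the segment of the T15 antibodies, averaged 3.31 ± 1.46 CPM over the Chat+ libraries and 2.68 ± 0.677 CPM over the Chat- libraries (SD, n = 5 each), with an interval of -0.58 to 1.03. These intervals are wide, and a change of 1 on the log2 scale in at least 1 direction lies inside each of them. The 8 fixed B-1 cell markers, a separate list, all had log2 fold changes above 0, against 57.0% of all genes. Of these markers, 0 passed the adjusted threshold. The list was chosen with earlier results of these data known, so the shared direction is not an independent test. The 8 markers summed to 873 to 1139 CPM in Chat+ and 595 to 686 CPM in Chat-. Ahnak, averaging 619 and 402 CPM, and Plac8, averaging 264 and 168 CPM, made up most of that sum.

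Ighv5-2, the D-proximal segment known as VH81X that is often rearranged early in mouse B cell development, had 2.13, 1.82, 8.58, 1.14 and 1.36 CPM in Chat+, against 1.97, 1.14, 2.29, 1.30 and 2.20 CPM in Chat-. Chat+ replicate 3 stood above all others. The log2 fold change was 0.35 ± 0.53 (SE; limma adjusted p = 0.999). All of these segments were among those with few shared words except Ighv11-2, at 50.6%.

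The repertoire was broad in both groups. The 38 segments with a mean share of at least 1% held 76.4% of the Ighv sum, and the 8 with the highest mean shares held 27.7%. Ighv1-26 had the highest share in 8 of 10 libraries. Its level was 41.3, 60.6, 35.4, 37.0 and 79.2 CPM in Chat+, against 31.7, 32.2, 35.7, 34.1 and 47.5 CPM in Chat-, with a log2 fold change of 0.43 ± 0.22 (SE; limma adjusted p = 0.999). Chat- replicate 5 exceeded Chat+ replicates 1, 3 and 4, and without Chat+ replicate 5 the log2 fold change was 0.25. Mean shares of the next 6 in Chat+ and Chat- were 3.56% and 4.09% for Ighv1-82, 3.45% and 3.63% for Ighv3-6, 3.72% and 2.68% for Ighv1-53, 2.75% and 3.30% for Ighv9-3, 3.39% and 2.55% for Ighv1-80, and 2.59% and 2.24% for Ighv1-64. Ighv8-8 completes the 8. Of these, Ighv1-80 had an unadjusted limma p of 0.0382, with a log2 fold change of 0.68 ± 0.29 (SE; limma adjusted p = 0.999), and of 0.42 without Chat- replicate 4 (limma adjusted p = 0.736).

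**Figure D2:**
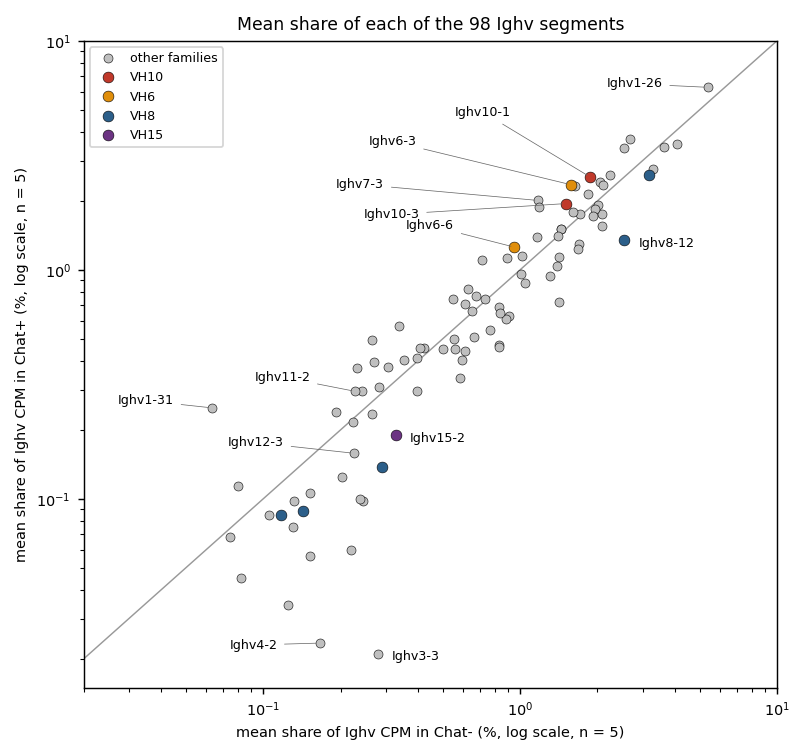
Mean share of the Ighv sum of each of the 98 segments in Chat+ (y axis) against Chat- (x axis), both in percent on log scales, with n = 5 libraries each and a line of equal shares. Both VH10 and both VH6 segments lie above the line, Ighv8-12 and Ighv15-2 lie below it, and Ighv1-26 is the most used segment in both groups.

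Among the other segments with the smallest p in each direction, the higher ones in Chat+ were of low to middle abundance. Ighv1-31 had 1.63, 1.82, 3.58, 0.645 and 2.27 CPM in Chat+, against 0, 1.04, 0.390, 0 and 0.862 CPM in Chat-, with a log2 fold change of 2.31 ± 0.78 (SE; limma adjusted p = 0.829). Chat+ replicate 4 lay within the Chat- range, and 56.1% of the words of this segment are shared. Ighv7-3 had 12.01, 14.6, 7.75, 25.6 and 15.04 CPM in Chat+, against 7.65, 7.66, 6.06, 7.94 and 10.4 CPM in Chat-, a log2 fold change of 0.82 ± 0.29 (SE; limma adjusted p = 0.876). Ighv9-4 and Ighv1-78 had log2 fold changes of 0.94 ± 0.37 and 0.83 ± 0.35 (SE; limma adjusted p = 0.999 each).

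The segments with the smallest p below 0 were mostly near the detection limit in Chat+. Ighv3-3 had 0.327, 0, 0, 0.122 and 0.426 CPM in Chat+, against 0.158, 0.770, 0.986, 6.74 and 1.13 CPM in Chat-. The groups overlapped through Chat- replicate 1, and Chat- replicate 4 held the highest value. The log2 fold change was -2.31 ± 0.86 (SE; limma adjusted p = 0.977), and -1.68 without that library (limma adjusted p = 0.676). Ighv4-2, an annotated pseudogene, averaged 0.150 ± 0.210 CPM over the Chat+ libraries and 1.14 ± 0.786 CPM over the Chat- libraries (SD, n = 5 each), and the remaining Ighv1-77 and Ighv2-6-8 had log2 fold changes of -0.74 ± 0.41 and -1.65 ± 0.92 (SE; limma adjusted p = 0.999 each). The 12 segments with a mean under 1 CPM together held 1.17% of the Ighv sum.

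Single libraries carried peaks of single segments. Ighv1-59 took 6.24% of the Ighv sum in Chat+ replicate 2, an estimated 1367 of 21888 reads, with a 95% Wilson interval of 5.93% to 6.57% that covers counting error only. Its median share in the other libraries was 0.916%, and the next highest was 1.54% in Chat- replicate 5. Ighv1-53 took 6.54% in Chat+ replicate 5 and 2.54% to 3.62% in the other Chat+ libraries. Ighv7-3 took 3.996% in Chat+ replicate 4, against a median of 1.17% elsewhere. In Chat- libraries, Ighv1-42 reached 2.32% in replicate 2 and 2.75% in replicate 5. Chat- replicate 4 had peaks of Ighv2-6 (2.02%), Ighv8-5 (1.08%) and Ighv3-3 (0.962%). These segments other than Ighv1-59, Ighv1-53, Ighv7-3 and Ighv3-3 were named after their values were seen.

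**Figure D3:**
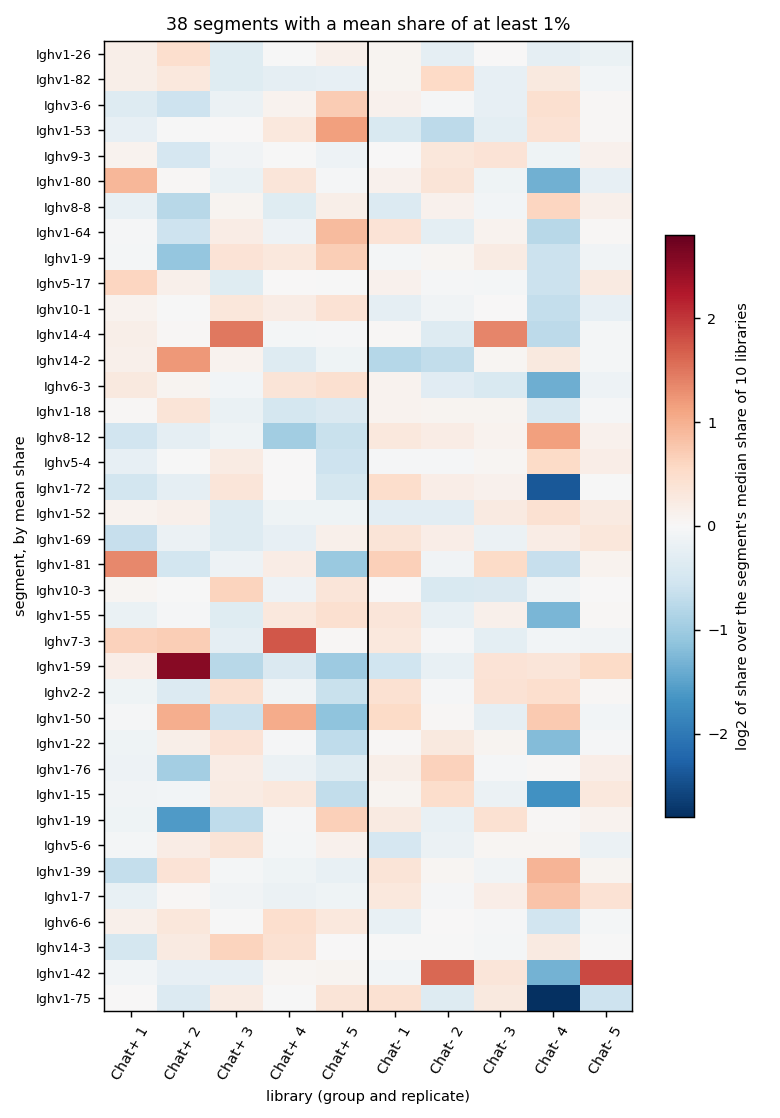
Heat map of the 38 segments with a mean share of at least 1% (rows, by mean share) in the 5 Chat+ and 5 Chat- libraries (columns), coloured by log2 of the share over the segment's median share of 10 libraries. Ighv1-59 in Chat+ replicate 2, Ighv7-3 in Chat+ replicate 4 and Ighv1-42 in Chat- replicates 2 and 5 stand out as high, and Chat- replicate 4 differs across many rows.

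The order of the segments was close between libraries of both groups. Across the 98 segments, Spearman's rho between shares was 0.841 to 0.935 within Chat+, 0.912 to 0.948 within Chat- with replicate 4 left out, and 0.839 to 0.944 between the groups with the same library left out. Pairs with Chat- replicate 4 gave 0.684 to 0.748. These are descriptions across segments, which share annotation and counting and are not independent replicates.

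The effective number of segments, the number of equally used segments that would give the same concentration, was 44.1, 38.4, 49.8, 47.4 and 37.5 in Chat+ replicates 1 to 5, against 48.0, 48.6, 48.7, 45.7 and 50.9 in Chat-. The means were 43.5 ± 5.39 for Chat+ and 48.4 ± 1.87 for Chat- (SD, n = 5 each). Chat+ replicates 2 and 5 were the least even, and Chat+ replicates 3 and 4 lay inside the Chat- range. Jchain, which encodes the joining chain of secreted IgM and IgA and marks antibody secreting cells, had 62.7, 160, 15.1, 33.6 and 213 CPM in Chat+, against 22.2, 26.1, 10.1, 19.4 and 35.8 CPM in Chat-. Chat+ replicates 5, 2 and 1 had the most Jchain and the lowest effective numbers, in that order, but Chat- replicate 5, next in Jchain, was the most even of all 10 libraries. Of 11 fixed plasma cell markers, 10 were measured, 7 had log2 fold changes above 0 and 0 passed the adjusted threshold. They summed to 591 to 895 CPM in Chat+ and 537 to 610 CPM in Chat-. Jchain and Mzb1 differed most in CPM, averaging 97.0 and 182 in Chat+ and 22.7 and 132 in Chat-. Their log2 fold changes were 1.61 and 0.52, with 1.75 for Derl3, 0.56 for Fkbp11, 0.23 for Creld2 and 0.12 for Edem1. Prdm1, Xbp1, Irf4 and Sdc1 had 0.10, -0.01, -0.02 and -0.05. The part of these markers in the evenness or in the single segment peaks was not tested.

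**Figure D4:**
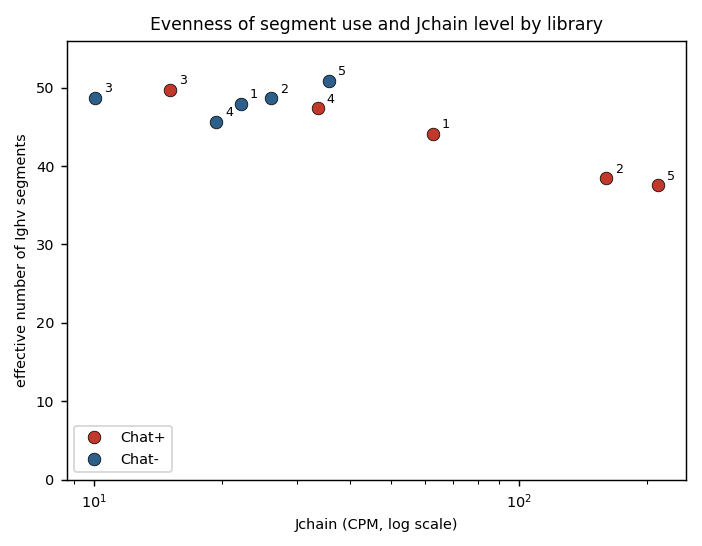
Effective number of Ighv segments (y axis) against the Jchain level (CPM, log scale, x axis), 1 point per library with its replicate number. Chat+ replicates 2 and 5 have the highest Jchain levels and the lowest effective numbers, at 38.4 and 37.5.

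Position along the locus did not order the differences. Spearman's rho between distance from the most D-proximal listed segment and log2 fold change was 0.0067 across 98 segments, given as a description. The 33 most D-proximal segments held 26.4 ± 2.56% of the Ighv sum in Chat+ and 26.4 ± 1.95% in Chat-, the 32 in the middle 34.2 ± 2.13% and 33.01 ± 1.89%, and the 33 most distal 39.4 ± 1.32% and 40.6 ± 1.47% (SD, n = 5 each). The VH6 and VH10 segments are neighbours: the 8 listed segments from Ighv6-3 to Ighv10-3 span 132 kb, and 6 of them had log2 fold changes above 0 and 2 below. The segments of other families in this stretch were not uniformly higher. Between the VH6 and VH10 members lie Ighv8-2, at -0.004 ± 0.60, and Ighv1-2, at 0.22 ± 0.43 (log2 fold change ± SE). Between Ighv10-1 and Ighv10-3 lie Ighv1-4, at 0.30 ± 0.40, and Ighv1-5, at -0.32 ± 0.25. This stretch was chosen after its values were seen.

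**Figure D5:**
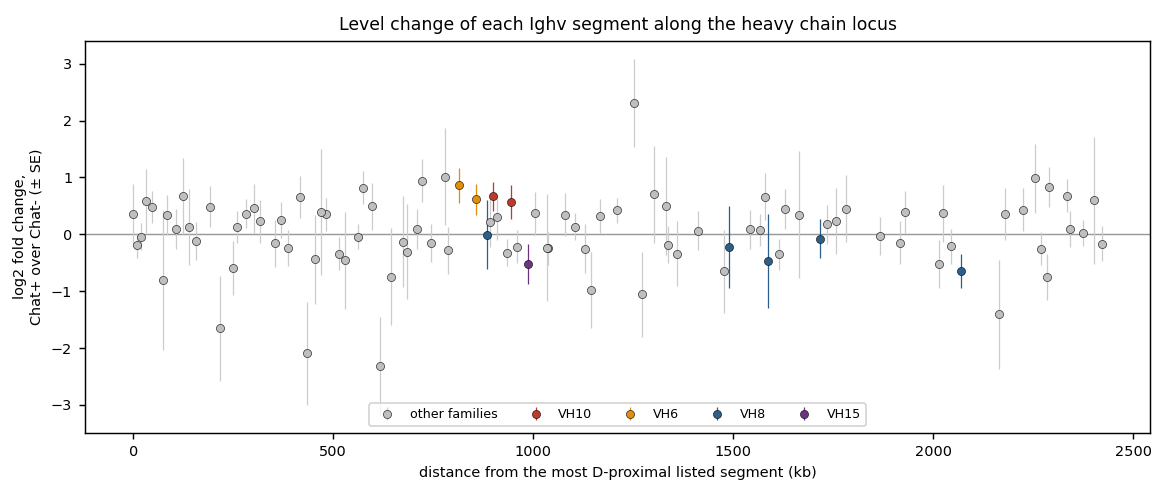
Log2 fold change of the level, Chat+ over Chat- (y axis, ± SE from limma), of the 98 segments by distance in kb from the most D-proximal listed segment (x axis). The VH6 and VH10 segments sit side by side above 0, while the values elsewhere scatter around 0 with no slope along the locus.

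The genes that make and read these segments were measured as fixed lists. Of 17 genes of V(D)J recombination, 16 were measured, 10 had log2 fold changes above 0 and 0 passed the adjusted threshold. Rag1, a subunit of the recombinase that cuts V, D and J segments, averaged 1.05 ± 0.659 CPM over the Chat+ libraries and 4.74 ± 1.92 CPM over the Chat- libraries (SD, n = 5 each), with a log2 fold change of -2.19 ± 0.53 (SE; limma adjusted p = 0.337). Of 10 genes of class switching and hypermutation, 6 had log2 fold changes above 0, and of 16 factors of V promoters and heavy chain enhancers, 4 did, with 0 past the adjusted threshold in either list.

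Markers of other cells were detected in both groups, and 0 of any list passed the adjusted threshold. Only 2 of 9 T and NK cell markers were listed, Lck and Cd4, summing to 13.5 to 25.1 CPM in Chat+ and 16.5 to 31.1 CPM in Chat-. The sums in Chat+ and Chat- were 21.8 to 128 and 43.2 to 104 CPM for 7 neutrophil genes, 301 to 560 and 270 to 647 CPM for 4 erythroid genes, 22.9 to 43.0 and 19.1 to 92.5 CPM for 5 macrophage genes, 270 to 354 and 281 to 400 CPM for 7 stromal and endothelial genes, and 265 to 328 and 227 to 314 CPM for 5 genes of plasmacytoid dendritic cells. Pecam1, which averaged 253 CPM in each group, made up most of the stromal and endothelial sum, and Tcf4, at 267 and 244 CPM, most of the plasmacytoid one. Of the other plasmacytoid genes, Siglech averaged 1.37 CPM in Chat+ and 4.33 CPM in Chat- (limma adjusted p = 0.829). Cox6a2 spanned 0 to 0.0388 CPM in Chat+ and 0.458 to 1.53 CPM in Chat- (limma adjusted p = 0.242). Ccr9 and Bst2 had log2 fold changes nearer 0, at -0.08 and -0.14 (limma adjusted p = 0.999 each). The highest macrophage and stromal sums were in Chat- replicate 4, the library with the most distant segment profile. Their part in the segment shares was not tested.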

How the data were processed

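The authors deposited 1 table of log2 values per gene for 10 libraries. Per the labels' protocols, RNA came from a micro column kit and libraries from a directional kit. cutadapt 2.6, Salmon 0.14.2 and GRCm38.p6 are named in the submitters' processing notes; their roles and order are not stated there. The deposited log2 values share a lowest value, so CPM was taken as the antilog minus 0.115. Whole reads were not recovered: at the best fitting depth 31.2% to 44.1% of values under 3 CPM were whole within 0.001 reads, so depths are estimates and no count model was used. Symbols were found for 14374 of 14450 IDs.

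Levels were compared with limma 3.58.1 in R 4.3.3 (trend, Benjamini-Hochberg over all genes) on the deposited log2 values, whose fold changes understate those of low genes. Family shares were compared with exact permutation tests adjusted over 15 families. TMM (trimmed mean of M values) scaling served as an alternative. Steps were tested on simulated data. Named segments were those with a textbook role, the 8 most abundant, the 6 with the smallest p in each direction, those whose CPM did not overlap, and those that took at least 5% of 1 library and 3 times their median elsewhere. Ighv11-1, with a textbook role, had no row. The members, lists and markers were chosen with earlier results of these data known. Alternatives were other scalings, offsets, filters and share definitions, library weights, a replicate block and leaving out each library.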

Additional observations from a re-analysis of the deposited data

Results flagged for a closer look

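A value was picked out where 1 library of a group of 5 lay far from the others by Dixon's criterion. Of 82 groups of values, 12 were picked out, and chance does so for about 1 in 20 groups. The groups are not independent, since segments are parts of their families, and Ighv1-59 was named for its peak, so the number is not a test. Of the 12, 5 were in Chat- replicate 4, the library with the high mitochondrial share. In the Chat+ group, Ighv5-2 took 1.116% of the Ighv sum in replicate 3, against 0.110% to 0.333% in the others. Ighv1-53 took 6.536% in replicate 5, against 2.54% to 3.62%. Ighv1-59 took 6.243% in replicate 2, against 0.526% to 1.21%. The VH7 share was 4.882% in replicate 4, against 1.52% to 2.38%, and the VH4 share was 0.544% in replicate 3, against 0.7995% to 0.858%. The Ighv sum was 1233 CPM in replicate 5, against 638 to 769 CPM.

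In the Chat- group, replicate 4 held a share of 0.9623% for Ighv3-3, against 0.0303% to 0.161% in the others, and 4.161% for Ighv8-12, against 2.02% to 2.30%. The same library held 7.592% for VH2, against 3.77% to 4.35%, 7.738% for VH3, against 4.78% to 5.06%, and 9.743% for VH8, against 4.86% to 5.94%. VH14 took 7.203% in replicate 3, against 4.199% to 4.83%.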

How the results depend on the processing

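No segment passed the adjusted threshold in the deposited values or in any of 18 alternative limma fits. No family passed in any of 19 alternatives. The lowest adjusted p of a segment was 0.058, for Ighv7-3 with library quality weights, where 105 of all genes passed (0.727%). That of a family was 0.060, for VH6 without Chat+ replicate 3. With libraries left out, 1 family alone could not pass even at the smallest exact p possible. Of the 25 named segments, 18 kept their direction in every alternative, as did 7 of 15 families, VH6, VH8, VH10, VH12 and VH15 among them. The number of segments whose groups do not overlap was 0 in CPM, 1 in share, 0 to 3 when 1 library was left out (1.81% to 3.29% of all genes), and 5 without both replicates numbered 4 (5.99% of all genes), a setting chosen after seeing the data. Ighv1-82 turned to -0.013 with TMM scaling and -0.022 with quality weights. With the block and without both replicates numbered 4, Ighv11-2 was -0.57 and Ighv8-8 0.18, and 89 of all genes passed (0.616%). VH4 turned to 0.0198 points without pseudogenes and 0.0167 without segments under 1 CPM, which also turned VH1 to -0.0640 and VH5 to -0.0129. In CPM, VH2, VH3, VH4 and VH9 were higher in Chat+ by 2.55, 1.5, 0.0664 and 0.370. VH1 was -0.271 without its most abundant segment and -0.236 without each library's top one. Without both replicates numbered 4, VH1, VH2, VH5 and VH13 were -1.05, 0.346, -0.0018 and -0.0368. Leaving out 1 library at a time gave log2 fold changes of -0.35 to 1.23 for Ighv11-2, -0.12 to 0.58 for Ighv5-2, -0.10 to 0.14 for Ighv1-82, -0.26 to 0.24 for Ighv3-6, -0.20 to 0.069 for Ighv9-3, -0.33 to 0.077 for Ighv8-8 and -0.36 to 0.45 for Ighv1-59, and points of -1.25 to 1.12 for VH1, -0.744 to 0.210 for VH2, -0.167 to 0.413 for VH5, -0.0742 to 0.176 for VH11 and -0.00675 to 0.121 for VH13. Leaving out 1 library moved 13 of 25 named segments and 10 of 15 families by more than 1.5 times in at least 1 case, Ighv1-53 to 0.27 and Ighv1-64 to 0.026 without Chat+ replicate 5 among them. The cause of these turns was not tested. Same-numbered libraries were not shown to pair: their deviations correlated over all genes at 0.23, 0.07, -0.06, -0.20 and 0.14 for numbers 1 to 5, and not every library correlated best with its own number. With the replicate block, 0 segments passed, against 6 of all genes (0.0415%), with 12 higher and 1 lower before adjustment, against 3.7% and 1.26% of all genes. With 5 pairs the sign-flip p of a family cannot go below 0.0625, so none could pass (lowest adjusted p = 0.31); VH6 and VH10 were higher in 5 of 5 pairs and VH15 lower in 5 of 5. Estimated Ighv depth of 13200 to 31800 reads limits segments under 1 CPM most.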

Other observations

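Ighv14-4 was high in replicate 3 of both groups, at 4.33% of the Ighv sum in Chat+ and 4.02% in Chat-, and at 0.936% to 1.73% in the other libraries. Ighv1-36 was high in replicate 5 of both groups, at 1.71% in Chat+ and 0.736% in Chat-. Both segments were noticed after their values were seen. Over the 98 segments, the deviations of same-numbered libraries correlated at -0.12, 0.10, -0.19, 0.07 and 0.12 for numbers 1 to 5. Whether the shared peaks reflect a pairing of same-numbered libraries was not tested.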
